A study of Brachypodium distachyon with 6 samples.

Results

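The transcripts described here are 173 abundant root transcripts of the grass Brachypodium distachyon whose level was at least 2 times higher in plants fed nitrate than in plants fed ammonium. They were chosen by their measured values, out of 29627 features in the table of read counts. Counts were first turned into CPM, the count of a row per 1000000 counts of its library. A locus row was taken where its mean was at least 120 CPM over the nitrate libraries and at least 2 CPM over the ammonium libraries, with a ratio of nitrate mean to ammonium mean of at least 2. The rule leaves out 3 places by locus number, which hold 6 rows of the table, and 4 of those rows passed the values. Of the 1737 locus rows with a nitrate mean of 120 CPM or more, 10.2% were lower by a ratio of at least 2 and 9.96% were members. A ratio of at least 2 was found for 7.62% of all tested features. Because the ratio itself chose the members, the size and direction of the difference are given as a description, with no test.

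Messenger RNA came from whole roots of the inbred line Bd21, the source of the reference genome of this species. Seedlings were moved to tanks of 4.5 L at an age of 7 days and kept there for 19 days with 2.5 mM nitrogen, given either as 1.25 mM calcium nitrate or as 1.25 mM ammonium sulfate. There were 3 libraries per nitrogen source, each from a pool of 12 seedlings. The nitrogen source changed together with its counter-ion (calcium or sulfate), so the effects of the pair cannot be told apart. Roots grown with no nitrogen or with a mixture of sources were not part of the comparison, so a level described as lower under ammonium may equally be called higher under nitrate.

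Roots take up nitrate and reduce it in steps, by nitrate reductase and then nitrite reductase, to ammonium, which glutamine synthetase and glutamate synthase build into amino acids. Ammonium taken up from the medium enters at that last step and needs no reduction. Nitrate uptake draws protons into the root and ammonium uptake leads to their release, so the pH around the root moves in opposite directions. Nitrate also acts as a signal that changes the level of many root transcripts, and ammonium as the exclusive nitrogen source slows growth in many plants.

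The files do not pair the locus identifiers with names of genes. Of the 173 members, 0 matched the RefSeq gene table of 31335 genes by any of its identifiers, so each is given here by its identifier alone, without a role. Identifiers of this species carry the chromosome as their first digit and then a number that increases along it, and both were read from the identifier. For the same reason the markers of root and shoot tissue could not be read, and the tissue label was not checked against them. In whole roots, fewer cells of a type and less RNA per cell cannot be told apart.

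Library totals ran from 22470936 to 29547877 counts, the lowest being nitrate replicate 3. The lowest count of any member in any library was 164, for which counting alone gives an error of 7.81%. Counting error is thus small beside the ratios described here.

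As a whole, the 173 transcripts held 5.43%, 5.31% and 4.85% of all counts in the nitrate libraries (replicates 1 to 3) and 1.81%, 1.89% and 2.07% in the ammonium libraries. The means were 5.20% ± 0.308 and 1.92% ± 0.133 (SD, n = 3 each). Nitrate replicate 3 was the lowest nitrate library and ammonium replicate 3 the highest ammonium library, and the groups did not overlap. The sum was spread over many rows: the 42 most abundant members held the first 50% of the nitrate level, and the 12 most abundant held 24.1%.

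Most members differed by a modest factor. The median ratio of nitrate to ammonium was 2.63 (interquartile range 2.19 to 3.47). The ratio lay from 2 to under 2.5 for 78 members, from 2.5 to under 3 for 33, from 3 to under 4 for 29, from 4 to under 8 for 25 and at 8 or more for 8. The median log2 fold change, ammonium over nitrate, was -1.41 in the fit over all features, beside 0.0037 for all 23694 tested features and -0.20 for the locus rows of 120 CPM or more under nitrate.

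All 173 members passed the filter on low counts, and 172 were called lower under ammonium by the quasi-likelihood test of edgeR, at an adjusted p under 0.05. Over all tested features 22.2% were called lower, and among the locus rows of 120 CPM or more under nitrate 42.0%. In each of the 173 members every ammonium library lay below every nitrate library, which held for 27.1% of all tested features. These counts follow from the choice of members and are no separate evidence. The difference reached 2-fold in each of the 9 pairings of a nitrate with an ammonium library for 91 members. The choice of members favours this count too, and its share over all features was not taken.

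**Figure D1:**
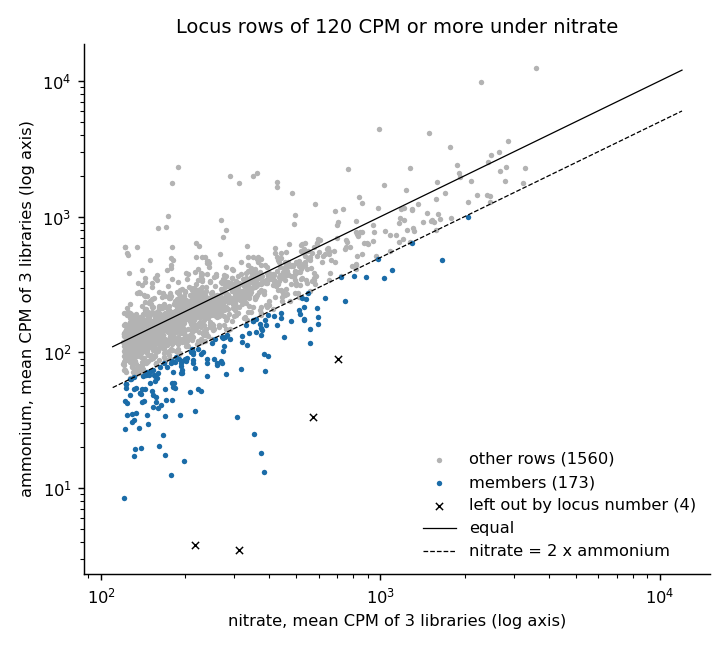
Mean CPM under ammonium (vertical, log axis) against mean CPM under nitrate (horizontal, log axis) for the 1737 locus rows with at least 120 CPM under nitrate. The 173 members lie on or under the dashed line that marks a ratio of 2, and the 4 rows that the rule leaves out by locus number are shown as crosses.

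The share of locus rows that were members was 9.25% of 897 rows from 120 to under 200 CPM under nitrate, 10% of 660 rows from 200 to under 500 CPM and 13.3% of 180 rows at 500 CPM or more. The median ratio within these classes was 2.74, 2.50 and 2.60. Ratios of 4 or more were found for 20, 12 and 1 members of the classes. No test was made of these shares, since the rule fixes both axes.

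The 12 members with the highest nitrate level, by CPM and not corrected for transcript length, fell by moderate factors. The most abundant, BRADI_4g24650v3, stood at 2172, 2280.4 and 1743 CPM under nitrate and 1016, 985 and 986 CPM under ammonium, a ratio of 2.07. Its ammonium libraries agree closely, and nitrate replicate 3 lies below the other nitrate libraries. BRADI_2g62510v3 stood at 1885, 1550.5 and 1540.0 CPM under nitrate and 501, 541 and 402 CPM under ammonium, a ratio of 3.44 and a log2 fold change of -1.80 (SE 0.14). BRADI_4g14950v3 stood at 1170.0, 1405 and 1303 CPM under nitrate and 638, 659 and 622 CPM under ammonium, a ratio of 2.02. Of these rows, BRADI_2g62510v3 had the larger ratio, and its ammonium replicate 3 was the lowest of the ammonium group.

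BRADI_3g57990v3 stood at 1251, 1145 and 892 CPM under nitrate and 449.5, 454 and 303 CPM under ammonium, a ratio of 2.73. Both libraries numbered 3 were the lowest of their group for this row. BRADI_2g37377v3 stood at 1103, 941 and 1056 CPM under nitrate and 306, 310.2 and 437 CPM under ammonium, a ratio of 2.94. Here ammonium replicate 3 was the highest of its group. BRADI_2g07940v3 stood at 1107, 953 and 879 CPM under nitrate and 473, 479 and 506 CPM under ammonium, a ratio of 2.02 that lies close to the limit of the rule. BRADI_2g16560v3 stood at 950.0, 891 and 813 CPM under nitrate and 339, 364 and 383 CPM under ammonium, a ratio of 2.45. Its ammonium values are close to each other and no library stands apart.

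BRADI_1g54350v3 stood at 905, 801 and 707 CPM under nitrate and 395, 366 and 328 CPM under ammonium, a ratio of 2.22. BRADI_2g20830v3 stood at 858, 724 and 653 CPM under nitrate and 228, 239 and 249.7 CPM under ammonium, a ratio of 3.12 and a log2 fold change of -1.66 (SE 0.12). BRADI_1g23770v3 stood at 752, 704 and 711 CPM under nitrate and 334, 341 and 398 CPM under ammonium, a ratio of 2.02. In BRADI_1g54350v3 both libraries numbered 3 were the lowest of their group, and in BRADI_2g20830v3 nitrate replicate 1 stood above the other nitrate libraries. BRADI_2g10970v3 stood at 663, 632 and 601 CPM under nitrate and 245, 251 and 264 CPM under ammonium, a ratio of 2.49. BRADI_3g15050v3 stood at 569.9, 553 and 666 CPM under nitrate and 147, 126 and 210.5 CPM under ammonium, with a ratio of 3.69 and a log2 fold change of -1.90 (SE 0.18). It had the largest ratio of the 12, and replicate 3 was the highest library of both groups. Among the 12 rows, ammonium replicate 3 was the highest of its group in 7 and the lowest in 4, nitrate replicate 3 was the lowest of its group in 8, and 4 had a ratio under 2.1.

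**Figure D2:**
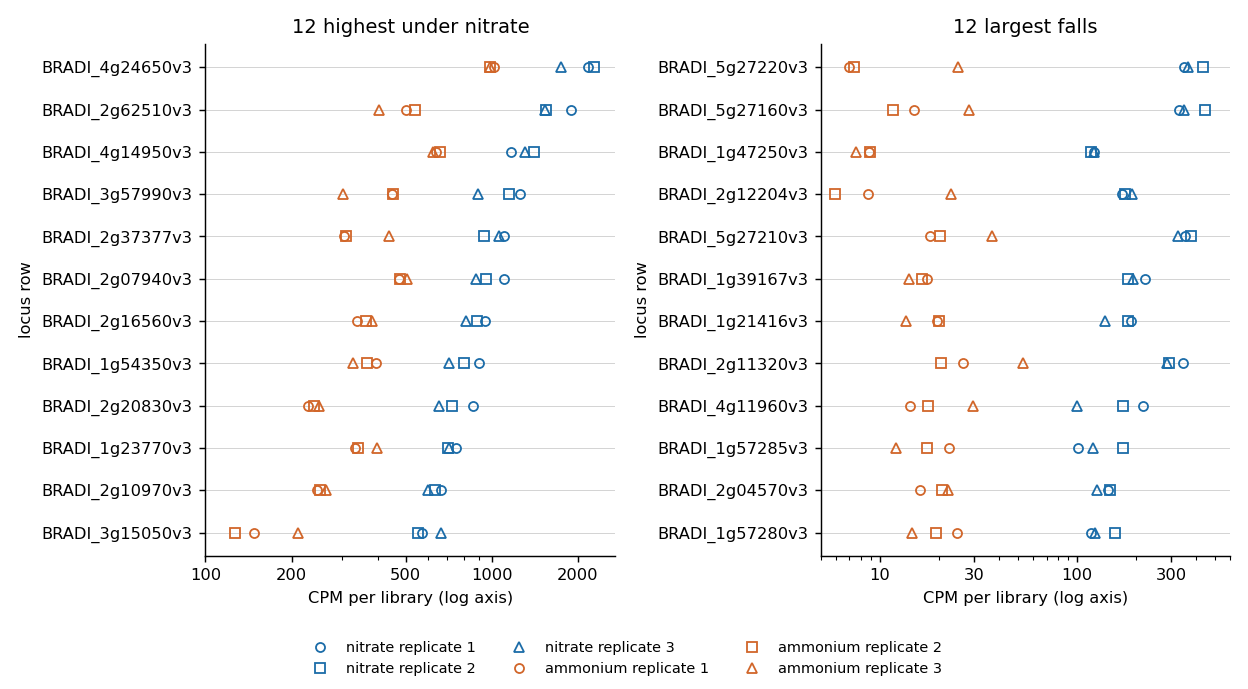
CPM in each library (horizontal, log axis) of the 12 members with the highest nitrate mean and of the 12 with the largest fall. In every row the ammonium libraries lie to the left of the nitrate libraries, and in 7 of the 12 largest falls the triangle of ammonium replicate 3 lies nearest to nitrate within its group.

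None of the 12 largest falls (0) was among the 12 most abundant members. The largest was that of BRADI_5g27220v3, with 348, 436 and 364 CPM under nitrate and 6.94, 7.35 and 24.96 CPM under ammonium. Its means were 383 ± 47.01 CPM under nitrate and 13.1 ± 10.3 CPM under ammonium (SD, n = 3 each), a ratio of 29.3 and a log2 fold change of -4.89 (SE 0.48). Ammonium replicate 3 stood well above the other ammonium libraries, and without it the log2 fold change of BRADI_5g27220v3 was -5.76. The next was BRADI_5g27160v3, with 329.9, 445 and 347 CPM under nitrate and 14.9, 11.6 and 28.2 CPM under ammonium, a ratio of 20.5 and a log2 fold change of -4.37 (SE 0.32). BRADI_5g27210v3 stood at 353, 378 and 323 CPM under nitrate and 17.9, 20.1 and 37.1 CPM under ammonium, a ratio of 14.03 and a log2 fold change of -3.83 (SE 0.26). All 3 rows lie close together on chromosome 5, and in each of them ammonium replicate 3 was the highest of its group.

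BRADI_2g12204v3 stood at 169.5, 175 and 189.8 CPM under nitrate and 8.73, 5.91 and 22.9 CPM under ammonium, a ratio of 14.2 and a log2 fold change of -3.85 (SE 0.42). Without ammonium replicate 3 the log2 fold change of BRADI_2g12204v3 was -4.62. These were the 2 members whose fold moved by more than 1.5 times when 1 library was left out, in both cases ammonium replicate 3. BRADI_2g11320v3 stood at 343, 293 and 285 CPM under nitrate and 26.3, 20.4 and 53.2 CPM under ammonium, a ratio of 9.21. BRADI_4g11960v3 stood at 215, 170.5 and 99.4 CPM under nitrate and 14.2, 17.4 and 29.6 CPM under ammonium, a ratio of 7.93. In both, ammonium replicate 3 was again the highest ammonium library. BRADI_2g04570v3 stood at 143, 147 and 126 CPM under nitrate and 16.04, 20.6 and 22.2 CPM under ammonium, a ratio of 7.07, with a smaller spread in both groups.

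The other five rows of the largest falls were lowest, within the ammonium group, in ammonium replicate 3, and all lie on chromosome 1. BRADI_1g47250v3 stood at 122, 117 and 122.5 CPM under nitrate and 8.83, 8.90 and 7.56 CPM under ammonium, a ratio of 14.3 and a log2 fold change of -3.85 (SE 0.09). It was among the most even of the large falls, with little spread in either group. BRADI_1g39167v3 stood at 221, 181 and 192 CPM under nitrate and 17.4, 16.3 and 13.99 CPM under ammonium, a ratio of 12.5. BRADI_1g21416v3 stood at 189, 181 and 139 CPM under nitrate and 19.5, 19.9 and 13.6 CPM under ammonium, a ratio of 9.59. In BRADI_1g21416v3 ammonium replicate 3 lies apart from the other ammonium libraries, which nearly coincide. BRADI_1g57285v3 stood at 101, 172 and 121 CPM under nitrate and 22.4, 17.4 and 12.1 CPM under ammonium, a ratio of 7.59. Its direct neighbour BRADI_1g57280v3 stood at 118, 157 and 123.3 CPM under nitrate and 24.6, 19.2 and 14.6 CPM under ammonium, a ratio of 6.81. The pair rise and fall together across libraries, nitrate replicate 2 being the highest and ammonium replicate 3 the lowest for both.

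Some members were direct neighbours in the order of locus numbers of their chromosome. This order, used for all neighbours here, holds only loci that have a row of counts. Any locus without a row is skipped, so adjacency on the chromosome itself was not checked. There were 7 runs of consecutive rows, 1 of 3 members and 6 of 2, which held 15 of the 173 members, and 32 members had another member within 5 places. How often other abundant rows lie as close to each other was not counted, so these counts are a description only. How the authors' counting treated reads that fit several genes or overlap neighbouring genes is not given in the sources used here, so values of neighbouring rows that resemble each other are uncertain.

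The run of 3, on chromosome 2, began with BRADI_2g20830v3, given above. It went on with BRADI_2g20840v3, at 412, 378 and 329.5 CPM under nitrate and 133, 134 and 138 CPM under ammonium, a ratio of 2.77. BRADI_2g20850v3 stood at 295, 252 and 271 CPM under nitrate and 92.3, 89.5 and 124 CPM under ammonium, a ratio of 2.67. The ratios of the 3 rows are close to each other. Next to BRADI_2g16560v3, described above, BRADI_2g16570v3 stood at 465, 481 and 375 CPM under nitrate and 167, 165 and 202 CPM under ammonium, a ratio of 2.47 that nearly equals that of its neighbour. On chromosome 3, BRADI_3g32940v3 stood at 513, 612 and 499.8 CPM under nitrate and 232, 262 and 247 CPM under ammonium, a ratio of 2.19, and was highest in nitrate replicate 2. BRADI_3g32950v3 stood at 329, 385 and 332 CPM under nitrate and 152, 179.6 and 180.3 CPM under ammonium, a ratio of 2.05, and was also highest in nitrate replicate 2.

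The remaining runs showed larger falls. BRADI_4g11997v3, next to BRADI_4g11960v3, stood at 273, 223 and 156 CPM under nitrate and 31.8, 36.7 and 42.7 CPM under ammonium, a ratio of 5.87. Nitrate replicate 3 was the lowest and nitrate replicate 1 the highest nitrate library for both rows of this pair. BRADI_2g12216v3, next to BRADI_2g12204v3, stood at 144, 155 and 140.3 CPM under nitrate and 25.9, 23.1 and 39.5 CPM under ammonium, a ratio of 4.97. Its neighbour had the larger ratio, 14.2, and in both ammonium replicate 3 was the highest ammonium library. The pair BRADI_5g27210v3 and BRADI_5g27220v3 had ratios of 14.03 and 29.3. The 4 rows between BRADI_5g27160v3 and this pair were scarce: BRADI_5g27170v3 fell from 23.9 to 0.487 CPM (means, n = 3 each), and the other three had nitrate means of 2.74 CPM or less. BRADI_5g27170v3 is thus too scarce to be a member, but its ratio, 49.1, was above those of its abundant neighbours. It was named after its values had been seen.

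Rows that sit beside a member but are not members were not used by the rule for that member. Of 267 tested rows directly beside a member, 103 (38.6%) were called lower under ammonium (edgeR, adjusted p under 0.05) and 47 (17.6%) higher. Over all tested features 22.2% were called lower and 19.2% higher. The share called lower was 28.4% of 268 rows at 2 places, 29.9% of 281 at 3, 23.5% of 272 at 4 and 24.6% of 272 at 5. The share at 1 place was the highest of the 5, and those at 4 and 5 places lay near the background.

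Beside the 391 locus rows with at least 120 CPM under both sources and a ratio within 1.1, 20.4% of 613 tested neighbours were called lower. Beside the 163 rows that meet the mirrored rule, at least 2 times higher under ammonium, 17.8% of 259 neighbours were called lower and 29.0% higher. At 4 and 5 places from these 163 rows the share called lower was 24.1% and 27.8%, so such shares also differed by several points with distance there. The median log2 fold change at 1 place was -0.16 beside members, 0.03 beside rows within a ratio of 1.1 and 0.09 beside rows higher under ammonium. The median abundance of these neighbours was 13.2 CPM, 14.7 CPM and 19.7 CPM, in the same order, beside 13.7 CPM for all tested features, so the neighbours of rows higher under ammonium were the more abundant. For each set only its own rows were left out of its neighbours. Neighbours of the rows within a ratio of 1.1 and of the rows higher under ammonium can thus include members. The same holds for all tested features, so the shares rest on unlike pools of rows. No test of the difference between the shares was made.

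**Figure D3:**
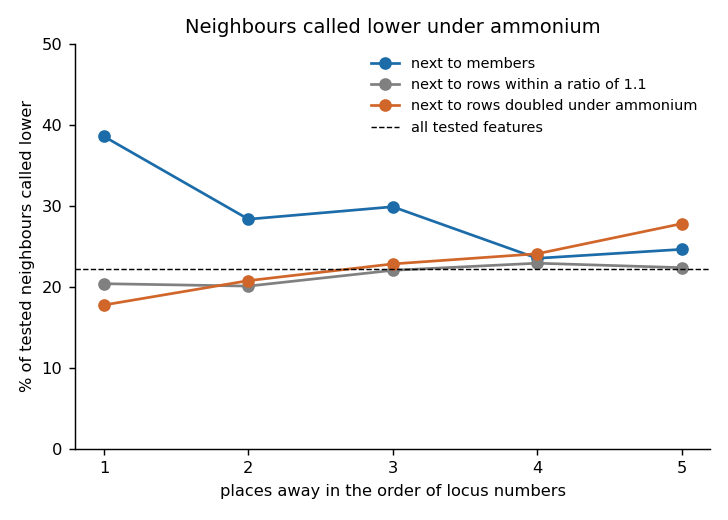
Percentage of tested neighbouring rows called lower under ammonium (vertical) by their distance in places along the order of locus numbers (horizontal). Lines show neighbours of members, of rows within a ratio of 1.1 and of rows at least 2 times higher under ammonium. Each line leaves out only the rows of its own set, so the lines other than that for members can include members. The line for members starts at 38.6% and reaches the dashed background of 22.2% within a few points by 4 places. The line for rows higher under ammonium rises from 17.8% at 1 place to 27.8% at 5.

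The libraries numbered 3 often lay at the edge of their group. Ammonium replicate 3 was the highest ammonium library for 117 of the 173 members, against 19 for replicate 1 and 37 for replicate 2. That share, 67.6%, stands beside 48.9% of the 1737 locus rows of 120 CPM or more under nitrate (members included) and 41.9% of the rows within a ratio of 1.1. The median of ammonium replicate 3 over the mean of replicates 1 and 2 was 1.17. It was at least 1.5 for 26 members, and the library lay below the others by the same factor for 4. How many other rows passed this factor on either side was not counted. Nitrate replicate 3 was the lowest nitrate library for 107 members (61.8%, beside 36.0% of the 1737 rows and 30.7% of those within a ratio of 1.1), with a median of 0.904 of the mean of replicates 1 and 2. For 70 members ammonium replicate 3 was the highest and nitrate replicate 3 the lowest of its group. The share of other rows with both was not counted, so this number is not read as a trait of the members.

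The rows at least 2 times higher under ammonium showed a median of 0.795 for ammonium replicate 3 over the mean of replicates 1 and 2, so this library lay nearer to nitrate in both sets. For nitrate replicate 3 their median was 0.911, on the same side as that of the members. The rows within a ratio of 1.1 had medians of 1.004 and 1.015. The spread between replicates was larger for the members than for the rows within a ratio of 1.1 and smaller than for the rows higher under ammonium: the median coefficient of variation of the members was 14.5% under ammonium and 10.2% under nitrate, against 3.92% and 6.50% for the rows within a ratio of 1.1 and 16.4% and 12.0% for the rows higher under ammonium. The ratio of nitrate to ammonium within a replicate number had a median over members of 3.02 for number 1, 2.70 for number 2 and 2.23 for number 3. In the same order, 166, 165 and 118 members reached a ratio of 2, counts that the choice of members favours. Their share over all features was not taken. Without ammonium replicate 3 the median log2 fold change of the members was -1.46, and without nitrate replicate 3 it was also -1.46, against -1.41 with all libraries. Why the libraries numbered 3 lay there was not tested.

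**Figure D4:**
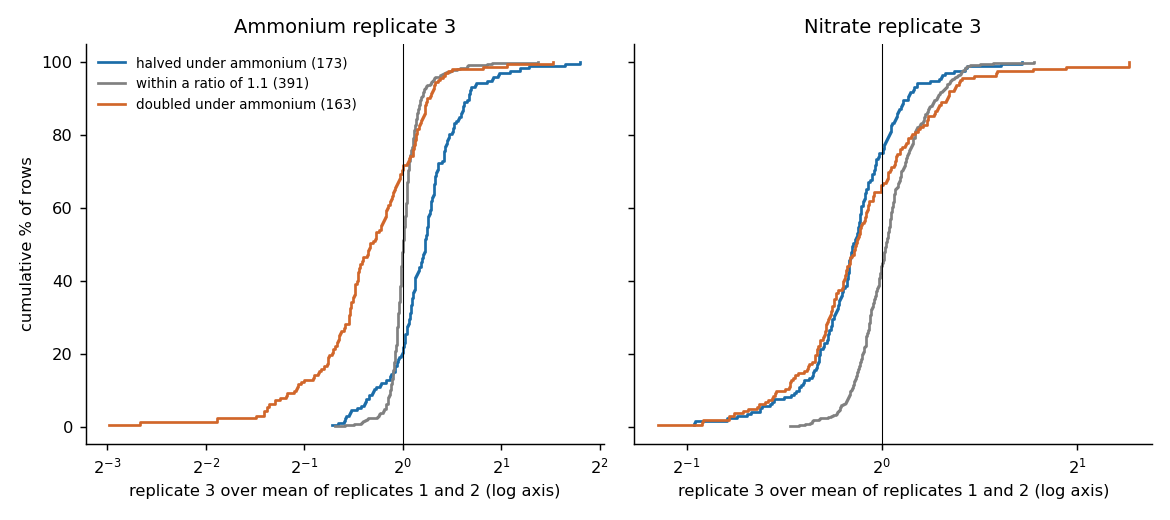
Cumulative percentage of rows (vertical) by the level of replicate 3 over the mean of replicates 1 and 2 (horizontal, log axis), for ammonium and nitrate. In ammonium the members lie to the right of 1 (median 1.17) and the rows higher under ammonium to the left (median 0.795), while in nitrate both lie to the left (medians 0.904 and 0.911).

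Because the rule used all 6 libraries, it was also applied to the libraries of 2 replicate numbers, and the ratio was then read in the left-out nitrate and ammonium library. Without number 1, 152 rows were chosen, with a median ratio of 2.54 in the choosing libraries and 3.13 in the left-out ones. Without number 2, 159 rows were chosen, with medians of 2.59 and 2.73. Without number 3, 215 rows were chosen, with medians of 2.58 and 2.05. Nitrate was higher in the left-out libraries for all 152, all 159 and all 215 rows. The ratio reached 2 in 93.4%, 90.6% and 54.4% of them. Within numbers 1, 2 and 3, the 1737 abundant locus rows had median ratios of 1.11, 1.17 and 1.13, members included. How many of the 1737 rows were higher under nitrate within a number was not counted. For the chosen rows the direction was the same in the left-out libraries, while the ratio was smaller in the libraries numbered 3. Of the chosen rows, 147, 150 and 167 were also members. After a ratio of at least 2 in the choosing libraries a reversal was unlikely, so the shared direction is a description only. With 1 left-out library per group these values have no test.

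**Figure D5:**
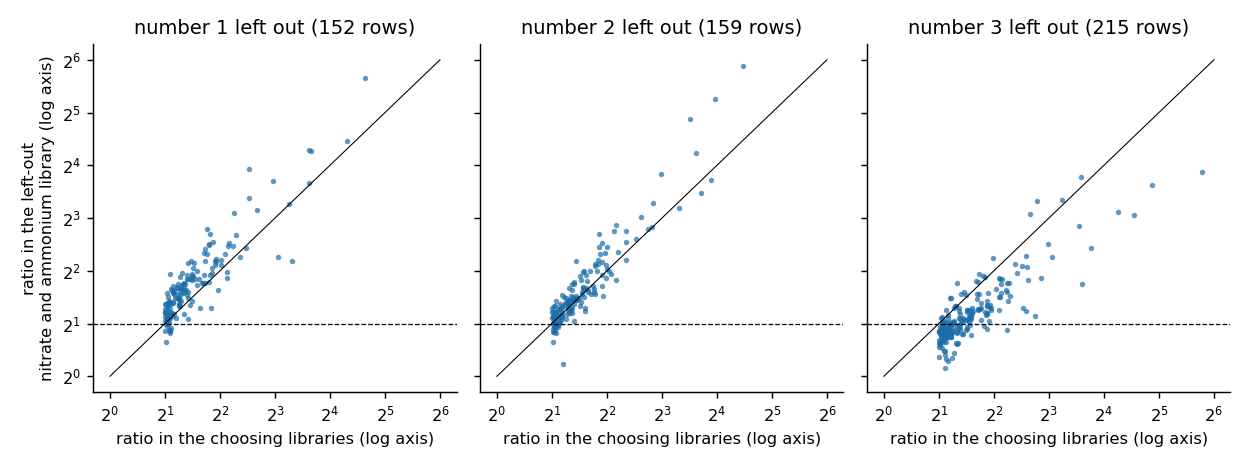
Ratio of nitrate to ammonium in the left-out pair of libraries (vertical, log axis) against the ratio in the 4 libraries that chose the rows (horizontal, log axis), 1 point per row. Points lie mostly above the line of equality when number 1 or 2 is left out and mostly under it when number 3 is left out, where 54.4% of 215 rows reach the dashed line at 2.

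Among the 4 members with the widest spread within a group, a pair varied in the same order of replicate numbers under both sources. BRADI_1g72590v3 stood at 125, 283 and 172 CPM under nitrate and 39.8, 117 and 93.7 CPM under ammonium. BRADI_1g44170v3 stood at 96.1, 212 and 160.4 CPM under nitrate and 25.1, 93.9 and 81.5 CPM under ammonium. For both rows replicate 1 was the lowest and replicate 2 the highest library under nitrate and under ammonium alike, so the groups did not overlap but came close. Within replicate numbers 1, 2 and 3 the ratio of nitrate to ammonium was 3.14, 2.41 and 1.83 for BRADI_1g72590v3 and 3.82, 2.25 and 1.97 for BRADI_1g44170v3. With a log2 fold change of -1.24 (SE 0.44), BRADI_1g44170v3 was the 1 member that did not pass the edgeR test (adjusted p = 0.051). With the replicate number as a block it passed (adjusted p = 0.00035).

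That order of replicates was not shared by most members: 16 lay below their group mean in number 1 and above it in number 2 in both groups, on the log2 scale. The same order of replicate numbers in both groups, whichever it was, was found for 27. Neither count was set beside its share over all features, so neither is read as a trait of the members. Over the 173 members, deviations from the group mean of the same replicate number in nitrate and in ammonium correlated at 0.31, 0.48 and 0.32 (Pearson's r for numbers 1 to 3, across transcripts that share libraries and are not independent). Over all tested features the values were 0.13, 0.21 and 0.11, with a prior count of 2 for the log2 scale, so the measures are not quite alike. Correlations between different numbers were not taken for the members alone.

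By contrast, 4 members followed the summed level of all members most closely, by Pearson's r of log2 CPM over the 6 libraries, a measure that rests mainly on the difference between the groups. They were BRADI_1g32420v3, BRADI_2g10970v3, BRADI_2g16560v3 and BRADI_4g44530v3, all with r = 0.999. BRADI_1g32420v3 stood at 569, 548 and 479 CPM under nitrate and 160.2, 169 and 195 CPM under ammonium, a ratio of 3.04. BRADI_4g44530v3 stood at 252, 235 and 229 CPM under nitrate and 84.7, 85.9 and 97.98 CPM under ammonium, a ratio of 2.66. The remaining pair is given above. The lowest r among members was 0.723, that of BRADI_1g44170v3, and the median was 0.987.

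At the edge of the rule the values did not break off. The members nearest the ratio limit were BRADI_1g06560v3, BRADI_2g34790v3 and BRADI_2g54430v3, each with a ratio of 2.00. BRADI_2g54430v3 stood at 129, 143 and 109 CPM under nitrate and 60.7, 68.3 and 60.96 CPM under ammonium. The rows nearest outside it were BRADI_3g50690v3, BRADI_3g18590v3 and BRADI_3g43360v3, each with a ratio of 1.99. BRADI_3g50690v3 stood at 1797, 1661 and 1285 CPM under nitrate and 703, 732 and 945 CPM under ammonium, so it is more abundant than most members and missed the limit by little. Nearest inside the limit of 120 CPM were BRADI_1g47250v3, BRADI_4g13660v3 and BRADI_3g08870v3, with nitrate means of 120.5, 121 and 122 CPM. Nearest outside were BRADI_5g08830v3, BRADI_3g50080v3 and BRADI_1g31320v3, with nitrate means of 119.8, 118 and 118 CPM and ratios of 3.10, 2.15 and 2.03. The limit of 2 CPM under ammonium left out no row (0): the lowest ammonium mean of a member was 8.43 CPM, in BRADI_1g47250v3, followed by 12.5 CPM in BRADI_2g12204v3 and 13.1 CPM in BRADI_5g27220v3.

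No chromosome lacked members. On chromosome 1, 49 of 565 locus rows with at least 120 CPM under nitrate were members (8.67%). Chromosome 2 had 51 of 436 (11.7%) and chromosome 3 had 35 of 395 (8.86%), where the loci that the rule leaves out lie. Chromosome 4 had 22 of 204 (10.8%) and chromosome 5 had 16 of 137 (11.7%). Among all tested features the share called lower under ammonium was 20.6% to 22.9% per chromosome.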

How the data were processed

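For 3 nitrate and 3 ammonium root libraries the authors deposited a single table of unnormalized counts. HISAT2 and HTSeq are named in the submitters' processing notes, with neither version nor genome build, annotation or counting options, which the sources used here do not give. Groups came from the sample titles. The members, lists and rules were chosen with earlier results of these data known. CPM used column totals of all 29627 features. Counts of all features were tested in R 4.3.3 by quasi-likelihood in edgeR 4.0.16 (filterByExpr, minimum count 10, minimum total 15; TMM; nitrogen source as the only term), with Benjamini-Hochberg adjustment over 23694 features. The SE was derived from the log2 fold change and F. The test was run on simulated counts, drawn without any effect of the replicate number, so that check does not cover such effects. Libraries of a group differed by more than counting noise (chi-square per degree of freedom at least 6.90), so none was treated as a repeat. Whether pools of 1 treatment grew in separate tanks is not stated in the labels, so p-values measure spread between pools that may be technical. Counting errors given for single counts cover counting error only.

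Both treatments share replicate numbers 1 to 3. Deviations from the group mean correlated at 0.13, 0.21 and 0.11 between libraries of the same number over all tested features. Between a nitrate and an ammonium library of different numbers they correlated at -0.12 to -0.015. A possible pairing by number was read from these values only. The main fit left the number out, so its calls and SEs are those of an unpaired comparison. The number entered an alternative fit as a block. Other alternatives were other scalings, no filter, DESeq2 1.42.0, other limits of the rule and leaving out each library. Named members are the 12 highest under nitrate, the 12 largest falls, the 6 most abundant runs of neighbours, the 3 nearest to each limit on either side, the 4 with the widest spread in a group and the 4 nearest to the summed level. The 24 gene lists fixed as product-name patterns were not tested, since no identifier matched a name.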

Additional observations from a re-analysis of the deposited data

How the results depend on the processing

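Of the 173 members, 171 to 173 were called lower in each of 12 refits, the lowest of these counts being 171 with DESeq2 and without ammonium replicate 1, nitrate replicate 2 or nitrate replicate 3, and no member (0) was higher under ammonium in any. With the replicate number as a block 173 were called, with a median log2 fold change of -1.42; the block added the call of BRADI_1g44170v3 and removed none. The median log2 fold change of the members lay between -1.46 and -1.35 when a library was left out. The median of all tested features moved by at most 0.02 under any scaling. Of the 40 named members, 38 were called in every refit. BRADI_1g72590v3 lost its call with DESeq2 (adjusted p = 0.052), without ammonium replicate 1 (0.057), without nitrate replicate 2 (0.14) and without nitrate replicate 3 (0.054). BRADI_1g44170v3 (edgeR adjusted p = 0.051) gained one with no filter, without ammonium replicate 2 or 3 and without nitrate replicate 1; its adjusted p ranged up to 0.17, without nitrate replicate 2. By construction, the number of rows that met the rule moved with its limits: 382 at a ratio of 1.5, 62 at a ratio of 3, 291 at 60 CPM and 70 at 240 CPM. It was 183 with TMM-scaled and 181 with RLE-scaled library sizes, 187 with group medians, and 158 (without ammonium replicate 1) to 199 (without ammonium replicate 3) when a library was left out; of the 199 rows, 166 were among the 173. The median ratio in libraries the rule had not used was 2.05 to 3.13, against 2.63 over all 6 libraries; the cause of the lower value, in the libraries numbered 3, was not tested. Depth limited few values, the lowest count of a member being 164.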

Other observations

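Several scarce rows beside members were also lower under ammonium; they were picked after their values had been seen and are given as values only. On chromosome 1, BRADI_1g57290v3, next to BRADI_1g57285v3, had means of 8.32 CPM under nitrate and 1.13 CPM under ammonium, a log2 fold change of -2.89 (SE 0.25). On chromosome 4, BRADI_4g11951v3 and BRADI_4g12005v3, on either side of a pair of members, had log2 fold changes of -2.25 (SE 0.25) and -2.39 (SE 0.34). On chromosome 2, BRADI_2g12192v3, next to BRADI_2g12204v3, had means of 1.72 and 0.108 CPM. Not every neighbour followed: BRADI_3g32900v3, beside a run of 2 members on chromosome 3, had means of 154 CPM under nitrate and 153 CPM under ammonium.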
